A study of Homo sapiens with 12 samples.

Results

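The genes of the oxidative phosphorylation machinery were examined in RNA-seq of 12 human cell line libraries. They were taken by name: protein-coding genes whose symbols mark them as subunits of respiratory complexes I to V, with CYC1 and CYCS added. The rule found 103 of the 61806 gene IDs of the count table, 13 on the mitochondrial genome and 90 on nuclear chromosomes. Complex I had 44 members, complex II had 4, complex III had 11, complex IV had 22, complex V had 21, and CYCS stood alone as the mobile carrier cytochrome c. These are not complete lists of subunits. NDUFAB1 of complex I falls outside the name pattern, and the readthrough gene NDUFC2-KCTD14 falls within it. NDUFA4 and NDUFA4L2, which match the complex I pattern by name, were counted with complex IV, where the NDUFA4 protein is known to sit. The study lowered or raised CD146, the adhesion molecule encoded by MCAM, in liver cancer lines, with 3 libraries in each of 4 groups. The first pair of groups was labelled Hep3B and carried a tetracycline-inducible shRNA against CD146 (CD146 sh) or an inducible control shRNA (Con sh). The second pair was HepG2 with a CD146 expression vector (CD146oe) or with pLVX (pLVX). HepG2 was grown in MEM with added sodium pyruvate and the other line in DMEM. The labels do not state the inducer, its dose or its duration, nor whether a line was 1 clone or a pool. They also do not say that the 3 libraries of a group were grown separately, and p-values reflect library-to-library variation only, some of which may be technical.

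Oxidative phosphorylation takes place in the inner mitochondrial membrane. Complex I takes electrons from NADH and complex II from succinate, complex III passes them to cytochrome c, and complex IV hands them to oxygen. Complexes I, III and IV pump protons, and complex V, the ATP synthase, lets the protons back and makes ATP. All complexes but complex II are mosaics of proteins from both genomes. The mitochondrial mRNAs are cut from long transcripts of the heavy and light strands of the mitochondrial genome, whereas each nuclear subunit has a gene and promoter of its own. Liver cells are rich in mitochondria.

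Totals were 12.8M to 18.1M counts per library (M, 1e6), and a level in CPM is a count per M of its library's TMM-adjusted total. Tests across genes are edgeR's quasi-likelihood test with Benjamini-Hochberg adjusted p, and a gene is said to rise or fall where that p is under 0.05. Nuclear members named as the largest rises or falls of a complex were picked among those with separate groups. For them, separate groups are a condition of the choice and no further support. MCAM itself was at 20.1, 22.1 and 24.5 CPM with CD146 sh, against 104, 102 and 108 CPM with Con sh (log2 change -2.25, SE 0.06, adjusted p = 5.5e-29). In HepG2 it was at 2134, 2127 and 2092 CPM with CD146oe, against 25.1, 25.8 and 25.8 CPM with pLVX (log2 change 6.37, SE 0.04, adjusted p = 5.6e-67). Of 10 hepatocyte markers, 5 averaged at least 1 CPM with CD146 sh and 1 did with Con sh, and their summed level was 8.59 to 67.9 CPM with CD146 sh and 6.89 to 9.30 CPM with Con sh. TTR had 0 counts with Con sh. In HepG2 all 10 markers passed 1 CPM, with sums of 56774 to 57215 CPM with CD146oe and 63123 to 65820 CPM with pLVX. The libraries labelled Hep3B therefore nearly lacked the transcripts that define hepatocytes, and they are called by their label throughout. Of the other marker lists, 4 endothelial genes summed to 21.7 to 22.5 CPM with CD146 sh and 2.58 to 3.15 CPM with Con sh (KDR at 0 counts in both), and 4 fibroblast and stellate cell genes to 86.5 to 104 CPM with CD146 sh and 52.6 to 60.6 CPM with Con sh. In HepG2 the endothelial genes summed to 6.31 to 7.14 CPM with CD146oe and 6.04 to 7.88 CPM with pLVX, and the fibroblast genes to 7.90 to 14.5 CPM and 9.95 to 12.3 CPM. Of 4 cholangiocyte genes, the sums were 146 to 151 CPM with CD146 sh, 170 to 184 CPM with Con sh, 519 to 535 CPM with CD146oe and 392 to 409 CPM with pLVX. The 4 leukocyte genes summed to at most 1.58 CPM in the libraries labelled Hep3B and to 1055 to 1131 CPM with CD146oe and 1429 to 1494 CPM with pLVX, from 1 gene, with CD3E at 0 counts outside pLVX. Their part in the values below was not tested. Fewer cells of a type and less RNA per cell cannot be told apart in bulk samples.

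Promoters of the nuclear members are shown as background, and whether they bear on the responses below was not tested. RefSeq windows (GRCh38.p14, 250 bases before to 50 after the gene start) matched 70 of the 90 nuclear members by symbol, using the first window listed for a gene. NRF1 and the ETS factor GABP are known regulators of respiratory chain genes. The NRF1 motif GCGCANGCG, searched on both strands, lay in 22 of the 70 windows (31.4%), against 11.1% of 15303 windows of protein-coding genes. The ETS motif CCGGAAG lay in 20 of 70 (28.6%) against 14.4%, and the YY1 motif AAGATGGC in 11 of 70 (15.7%) against 3.97%. The motif TGACGTCA, the cyclic AMP response element, lay in 5 of 70 (7.14%) against 2.65%. Among genes expressed enough to be tested with knockdown, the shares in 65 members and 10320 genes were 32.3% against 14.9% for NRF1, 30.8% against 19.2% for ETS, 16.9% against 5.38% for YY1 and 7.69% against 3.31% for TGACGTCA. The 30 bases around the first NRF1 match are printed below, 5′ to 3′ on the gene's own strand with the match in capitals, for 8 members whose first match lies before the gene start and whose levels are given in every library below, leaving out the testis isoform COX8C. SDHA and NDUFS6 lie on the plus strand of chromosome 5 at chr5:218144-218173 and chr5:1801351-1801380, and COX6A1 on the plus strand at chr12:120437884-120437913. UQCRFS1 (chr19:29213162-29213191), UQCR11 (chr19:1605471-1605500), ATP5MC2 (chr12:53676105-53676134), ATP5ME (chr4:674476-674505) and ATP5MJ (chr14:103921530-103921559) are on minus strands.
NDUFS6: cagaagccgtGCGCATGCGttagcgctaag
SDHA: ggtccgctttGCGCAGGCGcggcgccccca
UQCRFS1: cgcctcctcgCGCCTGCGCcgtggttggaa
UQCR11: cctccccgcgCGCGTGCGCgccgcggccgc
COX6A1: ggagggcacaCGCATGCGCacgaaggaaac
ATP5MC2: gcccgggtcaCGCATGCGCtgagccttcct
ATP5ME: cgcagcaactGCGCAGGCGcagccgatgat
ATP5MJ: gcatcccctgcgcgCGCCTGCGCgctcggt

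Per unit of exon length, mitochondrial members stood far above nuclear ones. In the deposited FPKM, which divide by exon length, the 13 mitochondrial members summed to 95978 ± 4968 with CD146 sh, 77069 ± 854 with Con sh, 92148 ± 2807 with CD146oe and 105385 ± 1022 with pLVX (SD, n = 3). The 90 nuclear members summed to 2511 ± 69.1, 3120 ± 104, 1999 ± 47.1 and 2154 ± 52.7 FPKM in the same order of groups. Mitochondrial members thus held 97.4%, 96.1%, 97.9% and 98.0% of the members' FPKM. MT-CO1 or MT-CO2 led in 3 groups and MT-CO3 with Con sh, and MT-ND6, the light-strand mRNA, was the lowest of the 13 in all 4 groups, with 1510 FPKM with CD146 sh, 1556 with Con sh, 3296 with CD146oe and 3431 with pLVX. Among nuclear members ATP5F1B, the catalytic beta subunit of ATP synthase, was first in all 4 groups, with 277 FPKM with CD146 sh, 389 with Con sh, 194 with CD146oe and 208 with pLVX. NDUFS5 was next in all groups. The exon lengths used are not given and need not equal the length of 1 mRNA. ATP5F1A, for example, averaged 298 CPM but 30.2 FPKM with Con sh, so nuclear levels and their order depend on these lengths. The median nuclear member was at 15.3, 19.9, 14.9 and 15.7 FPKM, and 79 to 80 of the 90 averaged at least 1 FPKM.

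**Figure D1:**
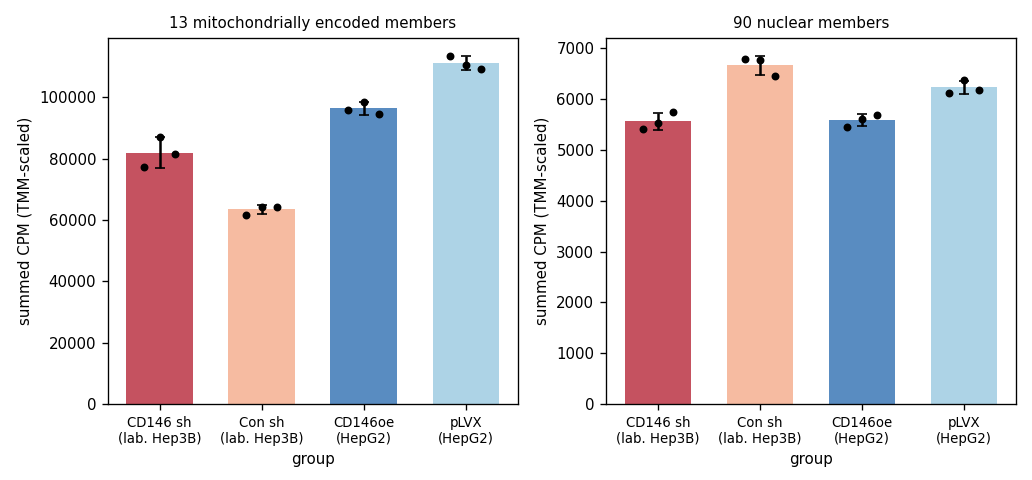
Summed CPM of the 13 mitochondrial (left) and 90 nuclear members (right) in each group, as mean with SD (bars) and single libraries (points). Mitochondrial sums were higher with CD146 sh than with Con sh and lower with CD146oe than with pLVX, whereas nuclear sums were lower under both manipulations, and in every pair the 3 libraries of one group lay apart from those of the other.

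Knockdown of CD146 in the libraries labelled Hep3B moved the products of both genomes in opposite directions. Of the 13 mitochondrial members 10 rose and 0 fell (median log2 fold change 0.29), while of 81 nuclear members tested 8 rose and 52 fell (median -0.27). Over all 16968 genes tested, 26.8% rose and 28.5% fell, with a median of 0.00. The summed mitochondrial level was 77203, 87130 and 81383 CPM with CD146 sh, against 61681, 64304 and 64329 CPM with Con sh. The summed nuclear level was 5409, 5535 and 5742 CPM with CD146 sh, against 6786, 6765 and 6446 CPM with Con sh. Neither pair of groups overlapped. The mitochondrial share of the members' counts was 93.6 ± 0.344% with CD146 sh and 90.5 ± 0.402% with Con sh, and these mRNAs made up 8.84 ± 0.464% and 7.03 ± 0.131% of all counts (SD, n = 3). The ratio of mitochondrial to nuclear summed CPM was higher with knockdown in every complex that both genomes build. It was 23.6 ± 1.30 with CD146 sh and 15.0 ± 0.954 with Con sh in complex I, 6.77 ± 0.658 and 4.62 ± 0.300 in complex III, 33.6 ± 2.01 and 24.6 ± 1.03 in complex IV, and 3.41 ± 0.201 and 2.24 ± 0.107 in complex V. Without CD146 sh replicate 3, the library with the highest hepatocyte marker sum, 9 mitochondrial members rose and 53 nuclear members fell.

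Among mitochondrial mRNAs, those of complex I differed most from one another. MT-ND4L and MT-ND4, subunits of the proton-pumping arm whose mRNA is shared and whose genes overlap, rose most. MT-ND4L was at 1811, 1989 and 1960 CPM with CD146 sh, against 1328, 1223 and 1248 CPM with Con sh (log2 change 0.60, SE 0.04, adjusted p = 7.6e-15). MT-ND4 was at 14986, 17233 and 15613 CPM with CD146 sh, against 10781, 10941 and 10969 CPM with Con sh (log2 change 0.55, SE 0.05, adjusted p = 9.3e-13). In both, each CD146 sh library lay above each Con sh library. MT-ND1, next to the ubiquinone site, was at 3231, 3636 and 3602 CPM with CD146 sh, against 2191, 2449 and 2568 CPM with Con sh (log2 change 0.54, SE 0.05, adjusted p = 4.1e-12). MT-ND2 was at 5446, 6499 and 5731 CPM with CD146 sh, against 4128, 4401 and 4464 CPM with Con sh (log2 change 0.44, SE 0.05, adjusted p = 6.3e-10), and both sets of libraries were apart. MT-ND3 was at 1041, 1126 and 1178 CPM with CD146 sh, against 916, 1049 and 1028 CPM with Con sh, with overlapping groups (log2 change 0.16, SE 0.05, adjusted p = 0.00404). That call was lost without CD146 sh replicate 3 (adjusted p = 0.074) or without Con sh replicate 1 (0.0964). MT-ND5 was at 3844, 3745 and 3825 CPM with CD146 sh, against 3311, 4279 and 4243 CPM with Con sh (log2 change -0.05, SE 0.06, adjusted p = 0.444), and MT-ND6 at 724, 713 and 765 CPM with CD146 sh, against 615, 819 and 779 CPM with Con sh (log2 change -0.01, SE 0.06, adjusted p = 0.924). Neither passed the test, but without Con sh replicate 1, the lowest control library for both, both passed as falls, at -0.17 (adjusted p = 0.00164) and -0.13 (0.0196). ND6 mRNA is known to lack a long poly(A) tail, and these libraries were poly(A)-selected.

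Of the other 6 mitochondrial mRNAs 5 rose. MT-CO1, the catalytic core of complex IV, was at 18789, 20809 and 18913 CPM with CD146 sh, against 14125, 14639 and 14485 CPM with Con sh (log2 change 0.44, SE 0.05, adjusted p = 2.4e-10). MT-CO2, which holds the first copper centre, was at 8778, 9961 and 9395 CPM with CD146 sh, against 6812, 6805 and 6872 CPM with Con sh (log2 change 0.46, SE 0.05, adjusted p = 4.3e-11). Groups were apart for both. MT-CO3 was at 8726, 9731 and 9430 CPM with CD146 sh, against 8482, 8946 and 8543 CPM with Con sh with overlapping groups (log2 change 0.10, SE 0.05, adjusted p = 0.0579), and it did not pass. It passed as a rise in 7 other fits (DESeq2, RLE scaling, all 12 libraries together, no low-count filter, replicate numbers as a block, without CD146 sh replicate 1 and without Con sh replicate 2), with adjusted p of 0.00566 to 0.0496, and in the others its adjusted p ran up to 0.741. MT-CYB, the cytochrome b of complex III, was at 4254, 5179 and 4681 CPM with CD146 sh, against 3784, 3793 and 3950 CPM with Con sh (log2 change 0.29, SE 0.05, adjusted p = 3.8e-06). MT-ATP6, the proton channel of ATP synthase, was at 4665, 5477 and 5077 CPM with CD146 sh, against 4273, 4110 and 4307 CPM with Con sh (log2 change 0.26, SE 0.05, adjusted p = 1.1e-05). MT-ATP8, whose reading frame overlaps that of MT-ATP6, was at 908, 1031 and 1213 CPM with CD146 sh, against 935, 849 and 873 CPM with Con sh (log2 change 0.24, SE 0.06, adjusted p = 3.8e-04), with overlapping groups. On the deposited FPKM with limma, 6 of the 13 passed as rises (MT-ND1, MT-ND2, MT-ND4, MT-ND4L, MT-CO1 and MT-CO2), while MT-CYB, MT-ATP6, MT-ATP8 and MT-ND3 no longer passed. The ribosomal RNAs of the same genome, MT-RNR2 and MT-RNR1, rose by 0.44 (SE 0.05) and 0.24 (SE 0.09) on the log2 scale (edgeR adjusted p = 5.8e-10 and 0.0274). The MT-RNR1 groups overlapped. Ribosomal RNA levels in these poly(A)-selected libraries may depend on the selection.

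**Figure D2:**
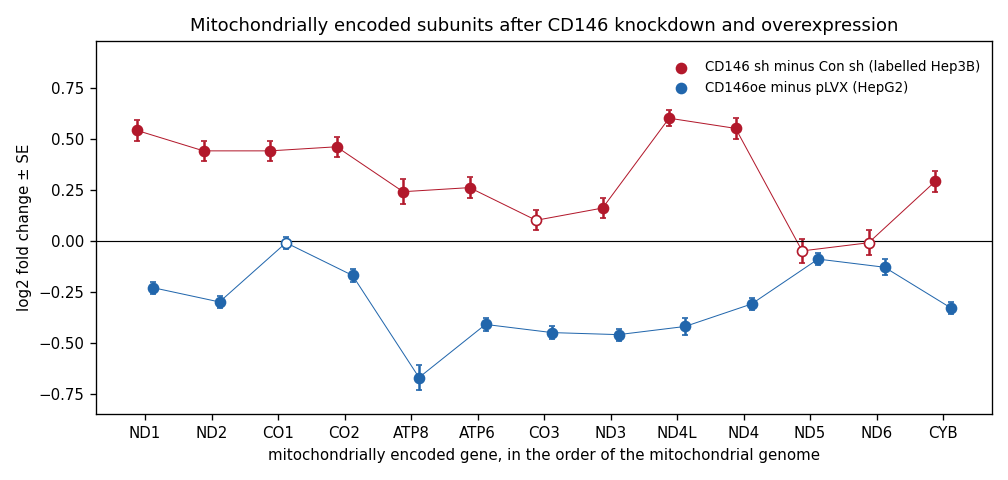
Log2 fold changes with SE of the 13 mitochondrial mRNAs, in the order of the mitochondrial genome, for CD146 sh minus Con sh (red) and CD146oe minus pLVX (blue), with open points where the adjusted p was not under 0.05. With knockdown the values ran between -0.05 and 0.60 and with overexpression between -0.67 and -0.01, and the stretch from ATP8 to ND3 lay below CO1 and CO2 in both lines.

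Nuclear copies of mitochondrial genes can take or give reads. The pseudogene MTATP6P1 held counts equal to 19.0% of those of MT-ATP6 with CD146 sh and 19.3% with Con sh. MTND2P28 held 3.80% and 3.70% of those of MT-ND2, and MTCO1P12 2.47% of those of MT-CO1 in both groups, while the leading copy of each of the other 10 mRNAs held at most 0.0659%. These copies rose with the mitochondrial genes, MTATP6P1 by 0.24 on the log2 scale (edgeR adjusted p = 1.2e-04), MTND2P28 by 0.48 (9.8e-12) and MTCO1P12 by 0.45 (5.7e-10), and of 13 such pseudogenes tested 4 rose and 0 fell. With overexpression 3 of 12 fell and 0 rose. Whether reads were exchanged between them was not tested.

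Most tested nuclear subunits of complexes I, II, III and V fell with CD146 sh. In complex I, 22 of 36 tested members fell and 4 rose (median -0.28). NDUFB2, an accessory subunit of the membrane arm, fell most, at 19.0, 21.1 and 20.8 CPM with CD146 sh, against 38.5, 36.9 and 38.2 CPM with Con sh (log2 change -0.91, SE 0.07, adjusted p = 1.3e-14). Its exons overlap those of BRAF and ADCK2, so its counts are uncertain. NDUFS3, a core subunit of the arm that carries the iron-sulphur clusters, was at 39.4, 40.0 and 41.2 CPM with CD146 sh, against 66.0, 67.5 and 61.7 CPM with Con sh (log2 change -0.70, SE 0.06, adjusted p = 6.0e-14). It overlaps KBTBD4, PTPMT1 and CELF1. NDUFS6, an accessory subunit needed for a complete NADH-binding module, was at 39.9, 39.6 and 41.2 CPM with CD146 sh, against 62.3, 57.4 and 58.5 CPM with Con sh (log2 change -0.57, SE 0.06, adjusted p = 2.2e-11), and its exons overlap no other gene. NDUFS5, on the intermembrane side, was at 82.8, 87.4 and 92.3 CPM with CD146 sh, against 127, 129 and 120 CPM with Con sh (log2 change -0.52, SE 0.05, adjusted p = 4.5e-12). The CD146 sh libraries lay below the Con sh libraries for all 4 genes. Of the 29 accessory subunits among the members 19 fell and 2 rose, and of the 7 nuclear core subunits 3 fell and 2 rose (NDUFS8 and NDUFV1).

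In complex II, to which no mitochondrial gene contributes, 3 of 4 members fell and 0 rose. SDHC, the haem-binding membrane anchor, was at 44.3, 43.8 and 43.5 CPM with CD146 sh, against 68.7, 73.1 and 63.6 CPM with Con sh (log2 change -0.64, SE 0.06, adjusted p = 8.5e-13). SDHB, its iron-sulphur subunit, was at 62.5, 62.9 and 64.6 CPM with CD146 sh, against 75.6, 82.8 and 75.6 CPM with Con sh (log2 change -0.30, SE 0.05, adjusted p = 3.3e-06). SDHD, the other anchor, fell by 0.24. SDHA, the flavoprotein that oxidises succinate, was at 76.0, 77.5 and 78.6 CPM with CD146 sh, against 73.6, 76.2 and 70.4 CPM with Con sh (log2 change 0.08, SE 0.05, adjusted p = 0.193), with overlapping groups, and did not pass. Named SDHA pseudogenes held counts equal to 205% of its own, so its level is uncertain. In complex III, 7 of 10 fell and 1 rose (median -0.27). UQCRFS1, the Rieske iron-sulphur protein, was at 38.3, 40.7 and 42.8 CPM with CD146 sh, against 57.4, 54.8 and 52.7 CPM with Con sh (log2 change -0.44, SE 0.06, adjusted p = 2.4e-08), and CYC1, cytochrome c1, was at 39.5, 46.7 and 40.4 CPM with CD146 sh, against 54.4, 58.2 and 57.1 CPM with Con sh (log2 change -0.42, SE 0.06, adjusted p = 1.2e-07). Both electron-carrying nuclear subunits of complex III were lower in every CD146 sh library, which the rule for naming them required. UQCR11, a small accessory subunit, was at 28.3, 32.5 and 30.5 CPM with CD146 sh, against 27.5, 27.1 and 25.7 CPM with Con sh (log2 change 0.18, SE 0.07, adjusted p = 0.0222), a rise whose call was lost in 4 of 6 fits that left out a library (adjusted p of 0.0506 to 0.129). CYCS, cytochrome c itself, was at 307, 287 and 332 CPM with CD146 sh, against 406, 413 and 411 CPM with Con sh (log2 change -0.41, SE 0.04, adjusted p = 1.9e-10).

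Complex IV showed a mixed response, with 6 falls and 3 rises among 13 tested nuclear members (median -0.10). COX6B1, which faces the intermembrane space, was at 48.0, 52.8 and 56.7 CPM with CD146 sh, against 71.4, 72.1 and 62.3 CPM with Con sh (log2 change -0.39, SE 0.06, adjusted p = 5.6e-07). COX7B was at 93.1, 99.7 and 108 CPM with CD146 sh, against 129, 127 and 116 CPM with Con sh (log2 change -0.31, SE 0.05, adjusted p = 2.1e-06). Both were lower in every CD146 sh library than in any Con sh library, again a condition of naming them. COX8A, the smallest accessory subunit, rose, at 32.5, 36.1 and 38.9 CPM with CD146 sh, against 25.7, 25.2 and 24.0 CPM with Con sh (log2 change 0.51, SE 0.07, adjusted p = 5.1e-08). COX7A2L, which links complexes III and IV in supercomplexes, was at 55.7, 53.7 and 55.8 CPM with CD146 sh, against 50.7, 48.0 and 47.3 CPM with Con sh (log2 change 0.18, SE 0.05, adjusted p = 0.00558). COX6A1 was at 139, 146 and 143 CPM with CD146 sh, against 133, 128 and 129 CPM with Con sh (log2 change 0.13, SE 0.04, adjusted p = 0.0114). Groups were apart for all 5, and the COX6A1 call was lost without Con sh replicate 2 (adjusted p = 0.0672).

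Complex V had 13 falls and 0 rises among 17 tested nuclear members (median -0.36). All 4 peripheral stalk genes fell (ATP5PB, ATP5PD, ATP5PF and ATP5PO), as did 6 of 8 genes of the membrane part and 3 of 5 of the catalytic head. ATP5ME, subunit e, which helps pair ATP synthases, was at 12.8, 10.8 and 15.6 CPM with CD146 sh, against 19.7, 18.8 and 18.7 CPM with Con sh (log2 change -0.56, SE 0.10, adjusted p = 3.7e-06). ATP5MF, subunit f, was at 75.2, 83.3 and 81.7 CPM with CD146 sh, against 115, 116 and 104 CPM with Con sh (log2 change -0.48, SE 0.05, adjusted p = 1.1e-10). ATP5F1B was at 561, 583 and 579 CPM with CD146 sh, against 779, 808 and 770 CPM with Con sh (log2 change -0.45, SE 0.04, adjusted p = 1.8e-12). ATP5PB, the stalk subunit b, was at 165, 166 and 173 CPM with CD146 sh, against 229, 230 and 219 CPM with Con sh (log2 change -0.43, SE 0.04, adjusted p = 1.9e-11). No CD146 sh library reached a Con sh library in these 4 genes. ATP5MJ was at 45.1, 48.3 and 47.8 CPM with CD146 sh, against 61.3, 68.7 and 54.7 CPM with Con sh (log2 change -0.38, SE 0.06, adjusted p = 1.3e-06), and ATP5MK at 52.3, 59.1 and 61.9 CPM with CD146 sh, against 80.1, 75.8 and 72.8 CPM with Con sh (log2 change -0.41, SE 0.06, adjusted p = 6.6e-08). ATP5ME overlaps MYL5, ATP5PB overlaps WDR77 and ATP5MK overlaps TAF5, and the strand setting of the counting is not given. Among the 36 tested nuclear members whose exons overlap no other counted gene, 25 fell and 2 rose (median -0.30).

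**Figure D3:**
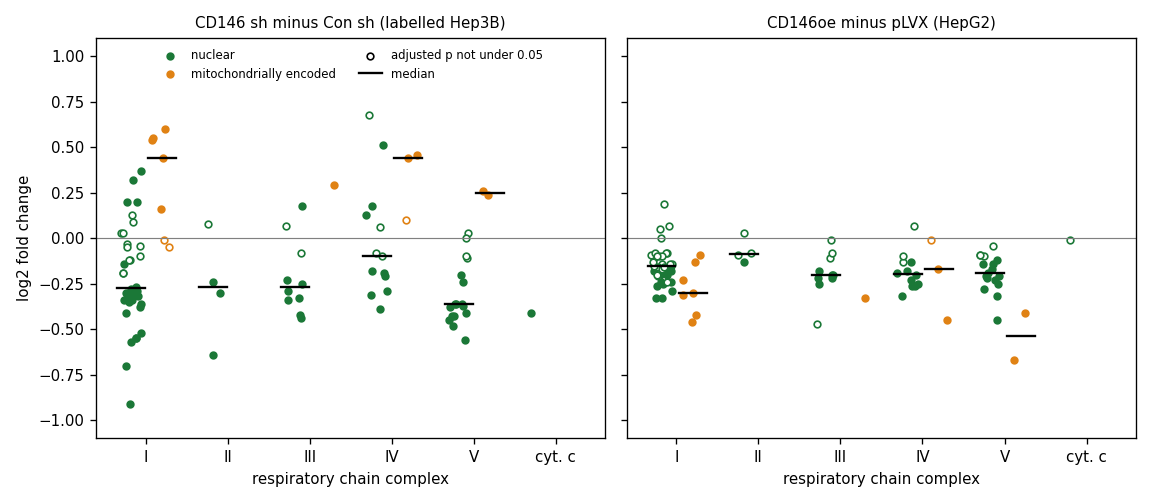
Log2 fold change of each tested member by complex for CD146 sh minus Con sh (left) and CD146oe minus pLVX (right), nuclear members in green and mitochondrial in orange, open where the adjusted p was not under 0.05, with medians as lines. With knockdown the nuclear medians lay between -0.36 and -0.10 in complexes I to V and the mitochondrial ones above 0, whereas with overexpression both lay below 0.

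Of the 8 nuclear rises with knockdown, 4 lie on chromosome 11, COX8A, NDUFV1, NDUFS8 and NDUFC2, in a wide interval between 64.0 and 78.1 Mb (GRCh38). NDUFC2, a membrane-arm subunit of complex I, was at 31.0, 28.3 and 32.9 CPM with CD146 sh, against 23.9, 23.6 and 23.4 CPM with Con sh (log2 change 0.37, SE 0.07, adjusted p = 1.7e-05), and NDUFS8, an iron-sulphur core subunit, at 27.4, 30.9 and 27.9 CPM with CD146 sh, against 23.9, 22.5 and 22.6 CPM with Con sh (log2 change 0.32, SE 0.07, adjusted p = 2.0e-04). Each CD146 sh library lay above each Con sh library in both, as the rule for naming them required. Among 166 other genes of at least 5 CPM in that interval, 100 rose and 24 fell (median 0.29), whereas among 449 on the rest of chromosome 11, 136 rose and 205 fell (median -0.10). In HepG2, 17 rose and 14 fell of 164 such genes in the interval (median 0.00). NDUFS3, at 47.6 Mb on the same chromosome, fell. This interval was chosen after the values were seen, and no cause was tested.

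Overexpression of CD146 in HepG2 was followed by lower levels from both genomes. Of the 13 mitochondrial members 12 fell and 0 rose (median -0.31), and of 80 nuclear members tested 42 fell and 0 rose (median -0.17). Over all 15300 genes tested 9.55% rose and 10.3% fell, with a median of 0.00. The summed mitochondrial level was 95807, 98584 and 94653 CPM with CD146oe, against 113564, 110664 and 109292 CPM with pLVX. The summed nuclear level was 5453, 5618 and 5682 CPM with CD146oe, against 6130, 6375 and 6189 CPM with pLVX. Groups were apart in both sums. The mitochondrial share of the members' counts was 94.5 ± 0.159% with CD146oe and 94.7 ± 0.169% with pLVX, with libraries of both groups at 94.6%. The number of nuclear falls depended on both the scaling and the model. With plain library totals in place of TMM in the same edgeR test, the median over all genes was 0.07 and 79.5% of the calls were rises, against 48.1% with TMM, and 24 nuclear members fell and 1 (NDUFV2) rose, with 10 mitochondrial falls. Under RLE scaling 42 nuclear members fell, and with scaling factors computed without mitochondrial genes 43 did. Limma on the deposited FPKM, which are divided by plain totals, changes the model too and gave 14 nuclear falls and 1 rise (NDUFV2), with a nuclear median of -0.09. DESeq2 called 28 nuclear falls and 10 mitochondrial ones. Leaving out a library left 28 to 43 nuclear falls, with the lowest counts without pLVX replicate 2 (28) and without CD146oe replicate 1 (29).

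MT-ATP8 had the largest fall of the mitochondrial mRNAs, at 753, 964 and 756 CPM with CD146oe, against 1141, 1515 and 1253 CPM with pLVX (log2 change -0.67, SE 0.06, adjusted p = 2.3e-14). MT-ATP6, on the same mRNA, was at 3933, 4092 and 3933 CPM with CD146oe, against 5405, 5202 and 5206 CPM with pLVX (log2 change -0.41, SE 0.03, adjusted p = 2.4e-17). MT-CO3, the next gene on the genome, was at 7842, 8120 and 7630 CPM with CD146oe, against 10859, 10559 and 10708 CPM with pLVX (log2 change -0.45, SE 0.03, adjusted p = 3.1e-19). MT-ND3, which follows it, was at 1434, 1538 and 1381 CPM with CD146oe, against 1962, 2068 and 1953 CPM with pLVX (log2 change -0.46, SE 0.03, adjusted p = 2.3e-17). For these 4 neighbours every CD146oe library lay below every pLVX library. MT-ND4L was at 1662, 1799 and 1677 CPM with CD146oe, against 2083, 2516 and 2243 CPM with pLVX (log2 change -0.42, SE 0.04, adjusted p = 1.9e-13) and MT-ND4 at 15381, 16281 and 15527 CPM with CD146oe, against 20126, 19372 and 18897 CPM with pLVX (log2 change -0.31, SE 0.03, adjusted p = 3.3e-13). MT-CYB was at 4553, 4872 and 4698 CPM with CD146oe, against 6084, 5847 and 5850 CPM with pLVX (log2 change -0.33, SE 0.03, adjusted p = 5.4e-14). These 3 also had separate groups.

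The other mitochondrial mRNAs fell less or did not pass. MT-ND1 was at 4432, 4465 and 4327 CPM with CD146oe, against 5224, 5093 and 5153 CPM with pLVX (log2 change -0.23, SE 0.03, adjusted p = 2.4e-09), and MT-ND2 at 4642, 4649 and 4529 CPM with CD146oe, against 5833, 5574 and 5607 CPM with pLVX (log2 change -0.30, SE 0.03, adjusted p = 6.4e-13). MT-CO2 was at 11851, 12109 and 11882 CPM with CD146oe, against 13460, 13173 and 13561 CPM with pLVX (log2 change -0.17, SE 0.03, adjusted p = 2.1e-06). Groups were apart in all 3. MT-CO1 was at 28678, 28601 and 28267 CPM with CD146oe, against 29924, 27853 and 28341 CPM with pLVX, with overlapping groups, and did not pass (log2 change -0.01, SE 0.03, adjusted p = 0.82). MT-ND5 was at 8794, 9098 and 8337 CPM with CD146oe, against 9412, 9732 and 8652 CPM with pLVX (log2 change -0.09, SE 0.03, adjusted p = 0.0462), and MT-ND6 at 1854, 1996 and 1709 CPM with CD146oe, against 2050, 2157 and 1867 CPM with pLVX (log2 change -0.13, SE 0.04, adjusted p = 0.00857), both with overlapping groups. The MT-ND5 call was lost in 4 of 6 fits that left out a library (adjusted p of 0.0939 to 0.38) and the MT-ND6 call in 2 (0.127 and 0.248). MT-RNR2 and MT-RNR1 fell by 0.24 (SE 0.03) and 0.25 (SE 0.04) on the log2 scale (edgeR adjusted p = 5.2e-10 and 4.6e-06).

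In the nuclear set, 13 of 36 complex I members fell, 1 of 4 of complex II, 6 of 10 of complex III, 9 of 12 of complex IV and 13 of 17 of complex V, and CYCS was at 188, 167 and 191 CPM with CD146oe, against 166, 197 and 187 CPM with pLVX (log2 change -0.01, SE 0.04, adjusted p = 0.863). ATP5MC1, one of 3 genes for the proton-carrying c-ring of ATP synthase, had the largest fall that passed, at 67.2, 63.9 and 58.2 CPM with CD146oe, against 86.6, 85.9 and 85.0 CPM with pLVX (log2 change -0.45, SE 0.05, adjusted p = 3.1e-10). ATP5MJ, a small membrane subunit, was at 35.3, 37.0 and 37.2 CPM with CD146oe, against 44.2, 48.9 and 42.5 CPM with pLVX (log2 change -0.32, SE 0.06, adjusted p = 8.7e-05). NDUFB6, of the membrane arm of complex I, was at 20.7, 21.8 and 22.4 CPM with CD146oe, against 26.3, 27.2 and 27.9 CPM with pLVX (log2 change -0.33, SE 0.07, adjusted p = 7.6e-04), and NDUFA1, also of that arm, at 38.0, 40.1 and 38.2 CPM with CD146oe, against 49.9, 47.1 and 49.4 CPM with pLVX (log2 change -0.33, SE 0.06, adjusted p = 1.5e-05). COX7B was at 35.1, 37.9 and 36.8 CPM with CD146oe, against 44.4, 46.6 and 45.2 CPM with pLVX (log2 change -0.32, SE 0.06, adjusted p = 5.4e-05), and COX7A2 at 53.5, 54.4 and 56.9 CPM with CD146oe, against 63.4, 65.1 and 68.3 CPM with pLVX (log2 change -0.26, SE 0.05, adjusted p = 1.5e-04). UQCRH, the hinge protein that helps cytochrome c bind complex III, was at 93.1, 95.3 and 88.3 CPM with CD146oe, against 109, 108 and 111 CPM with pLVX (log2 change -0.25, SE 0.04, adjusted p = 1.9e-05), and UQCR10 at 42.1, 43.8 and 42.4 CPM with CD146oe, against 54.0, 49.5 and 46.3 CPM with pLVX (log2 change -0.22, SE 0.06, adjusted p = 0.0038). The CD146oe libraries lay below the pLVX libraries in all 8 genes, which the rule for naming them required. SDHC was at 88.2, 88.8 and 88.5 CPM with CD146oe, against 99.5, 94.1 and 96.3 CPM with pLVX (log2 change -0.13, SE 0.04, adjusted p = 0.032), a call that was lost in 4 of 6 fits that left out a library (adjusted p of 0.0718 to 0.117).

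Knockdown and overexpression share no library, so their calls can be set side by side. Of 80 nuclear members tested in both lines 28 fell in both, against 603 of 13559 genes (4.45%), and 0 rose in both, against 453 genes (3.34%). Taken separately, 52 of these members fell with knockdown and 42 with overexpression. Counts this high would overlap to a similar extent if the falls in each line were unrelated. The 28 therefore add little to the separate counts. The 28 were NDUFA1, NDUFA12, NDUFB3, NDUFB6, NDUFB9, NDUFB10, NDUFS5, SDHC, UQCR10, UQCRC2, UQCRH, UQCRQ, COX4I1, COX6B1, COX7A2, COX7B, NDUFA4 and 11 genes of complex V. Rises with knockdown and falls with overexpression were found for 4 nuclear members (NDUFC2, NDUFV1, UQCR11 and COX6A1), against 392 genes (2.89%), and for 9 of the 13 mitochondrial members. The falls of NDUFC2 and UQCR11 with overexpression were each lost in 4 of 6 fits that left out a library (adjusted p of up to 0.332 and 0.139). The other mitochondrial members were MT-CO1, which rose with knockdown alone, and MT-CO3, MT-ND5 and MT-ND6, which fell with overexpression alone. The reverse pattern, a fall with knockdown and a rise with overexpression, held for 0 members and 349 genes (2.57%). In these edgeR calls, joint movement against the direction of CD146 was thus the commonest pattern among mitochondrial mRNAs. Among nuclear members 28 fell in both lines and 24 fell with knockdown but did not pass with overexpression. With DESeq2 19 nuclear members fell in both lines, and with limma on FPKM 10 did. In those fits 8 and 4 mitochondrial members rose with knockdown and fell with overexpression.

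**Figure D4:**
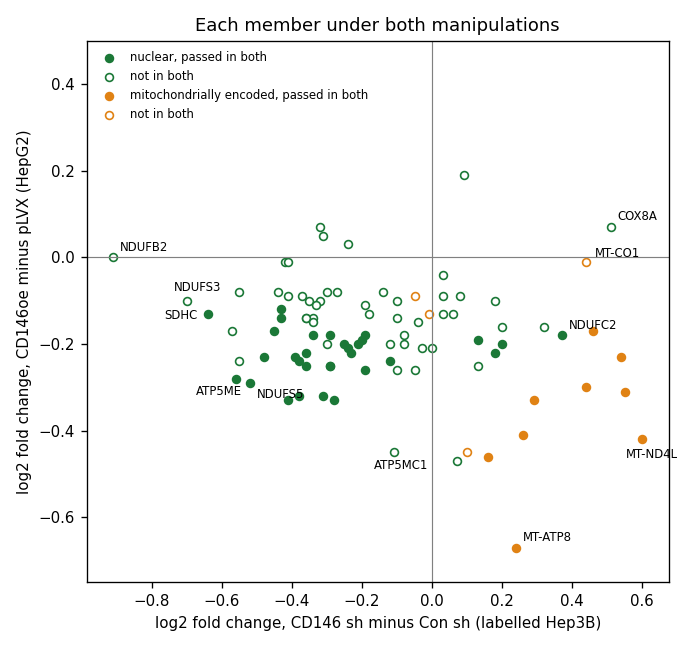
Each tested member by its log2 fold change with knockdown (horizontal) and with overexpression (vertical), filled where it passed the test in both lines. Nuclear members (green) gather at the lower left, where 28 fell in both, and mitochondrial members (orange) at the lower right, where 9 rose with knockdown and fell with overexpression.

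The difference between the lines was tested in a fit of all 12 libraries, as the effect of higher CD146 in HepG2 (CD146oe minus pLVX) minus the effect of higher CD146 in the libraries labelled Hep3B (Con sh minus CD146 sh). A value below 0 means that the gene was lower relative to higher CD146 in HepG2 than in the other line. Line, culture medium and method of manipulation cannot be told apart here. Of 82 nuclear members tested 60 passed below 0 and 1 above (median -0.42), whereas over all 18870 genes 19.2% passed below and 17.2% above (median 0.04). The smallest adjusted p belonged to NDUFS5 (difference -0.80, SE 0.07, edgeR adjusted p = 3.4e-15), ATP5F1B (-0.62, SE 0.05, 1.6e-14) and SDHC (-0.76, SE 0.07, 2.9e-13). NDUFB2 (-0.91), NDUFS3 (-0.79), ATP5MF (-0.71), ATP5MC3 (-0.57), ATP5PB (-0.55), UQCRH (-0.54) and UQCRC2 (-0.51) completed the first 10, with adjusted p of 6.4e-10 or less. Of the nuclear members COX8A alone passed above 0, at 0.59 (SE 0.10, 3.0e-06). Members that passed below 0 were 15 of 17 in complex V (median -0.55), 8 of 10 in complex III and 3 of 4 in complex II. In complex I 25 of 37 did, and in complex IV 8 of 13, with 1 that passed above. The mitochondrial members were spread around 0 (median -0.04). MT-CO1 (0.43), MT-ND1 (0.31), MT-CO2 (0.29), MT-ND4 (0.24) and MT-ND4L (0.19) lay above, with edgeR adjusted p of 4.6e-07, 8.5e-05, 1.4e-04, 0.0028 and 0.0221. MT-ATP8 (-0.42, 3.7e-04), MT-CO3 (-0.34, 1.1e-05) and MT-ND3 (-0.30, 1.3e-04) lay below, and the other 5 did not pass. The MT-ND4L call was lost in 4 of 12 fits that left out a library (adjusted p of 0.0615 to 0.155). It was also lost with DESeq2 (adjusted p = 0.146) and with limma on FPKM (0.131). The MT-ATP8 call was lost with DESeq2 (0.146) and with limma on FPKM (0.128) as well.

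The levels behind the strongest differences were as follows. NDUFS5 in HepG2 was at 78.5, 81.6 and 78.8 CPM with CD146oe, against 95.7, 98.9 and 96.5 CPM with pLVX (log2 change -0.29, SE 0.04, adjusted p = 1.2e-06), and ATP5F1B at 457, 462 and 477 CPM with CD146oe, against 527, 525 and 515 CPM with pLVX (log2 change -0.17, SE 0.03, adjusted p = 3.4e-05), so both fell in HepG2 as they did with knockdown. UQCRC2 was at 133, 131 and 135 CPM with CD146 sh, against 172, 172 and 161 CPM with Con sh (log2 change -0.34, SE 0.04, adjusted p = 1.7e-08) and in HepG2 at 294, 301 and 306 CPM with CD146oe, against 347, 340 and 334 CPM with pLVX (log2 change -0.18, SE 0.03, adjusted p = 2.3e-05). UQCRH with knockdown was at 155, 155 and 168 CPM with CD146 sh, against 201, 201 and 183 CPM with Con sh (log2 change -0.29, SE 0.05, adjusted p = 6.0e-07). NDUFB2 and NDUFS3 differed from these. In HepG2 NDUFB2 was at 23.5, 21.2 and 21.9 CPM with CD146oe, against 21.2, 23.2 and 22.1 CPM with pLVX (log2 change -0.00, SE 0.08, adjusted p = 0.983), and NDUFS3 at 41.1, 42.1 and 47.4 CPM with CD146oe, against 44.5, 49.3 and 45.7 CPM with pLVX (log2 change -0.10, SE 0.06, adjusted p = 0.271), and neither passed there. COX8A in HepG2 was at 25.3, 27.2 and 26.7 CPM with CD146oe, against 23.9, 26.1 and 24.8 CPM with pLVX and did not pass either (log2 change 0.07, SE 0.07, adjusted p = 0.544).

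The control libraries of the lines differed in the balance of the genomes. This comparison of Con sh (labelled Hep3B) with pLVX (HepG2) uses the same control libraries as the comparisons above. Line, vector, any inducer given for the shRNA and culture medium cannot be told apart. All 13 mitochondrial members were lower in the libraries labelled Hep3B (median -0.89), though MT-CO3 and MT-ATP6 were not below 0 with plain totals, whereas of 80 nuclear members tested 36 were higher and 30 lower (median 0.07). Of all 17401 genes tested, 43.0% were higher and 42.1% lower (median 0.02). Plain library totals moved these counts: in the same edgeR test without TMM the median over all genes was 0.38, 63.5% of calls were higher against 50.5% with TMM, the mitochondrial median was -0.53 with 10 lower, and 56 nuclear members were higher and 15 lower. Limma on the deposited FPKM, which carry plain totals, gave 57 and 15, whereas RLE scaling gave 37 and 28 and scaling without mitochondrial genes 36 and 30. The mitochondrial median lay below the median of all genes with TMM and with plain totals. The summed mitochondrial level was 61681 to 64329 CPM with Con sh and 109292 to 113564 CPM with pLVX. MT-ND6 differed most, at 615, 819 and 779 CPM with Con sh, against 2050, 2157 and 1867 CPM with pLVX (log2 change -1.50, SE 0.05, adjusted p = 4.5e-53). MT-CO1 was at 14125, 14639 and 14485 CPM with Con sh, against 29924, 27853 and 28341 CPM with pLVX (log2 change -1.03, SE 0.04, adjusted p = 2.3e-42). MT-CO3 differed least, at 8482, 8946 and 8543 CPM with Con sh, against 10859, 10559 and 10708 CPM with pLVX (log2 change -0.34, SE 0.04, adjusted p = 3.5e-13), and stood at 0.01 with plain totals. MT-RNR2, the large ribosomal RNA, was at 5710, 5440 and 6350 CPM with Con sh, against 29515, 27896 and 28262 CPM with pLVX (log2 change -2.33, SE 0.05, adjusted p = 3.9e-71). The poly(A) selection limits how this level can be read.

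**Figure D5:**
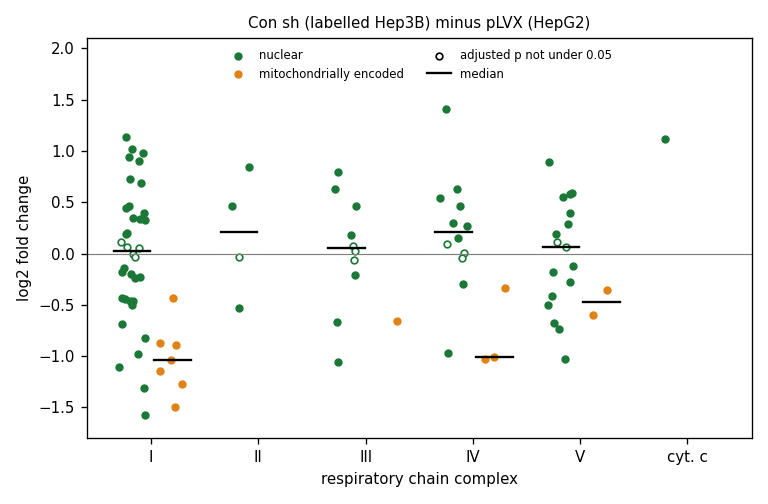
Log2 difference of each tested member between Con sh (labelled Hep3B) and pLVX (HepG2) by complex, nuclear in green and mitochondrial in orange, open where the adjusted p was not under 0.05. With TMM mitochondrial members lay between -1.50 and -0.34, while nuclear members spread from -1.57 to 1.41 around medians of 0.02 to 0.22 in complexes I to V.

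Nuclear members differed in both directions within each complex. COX7B was at 129, 127 and 116 CPM with Con sh, against 44.4, 46.6 and 45.2 CPM with pLVX, the largest nuclear excess in the libraries labelled Hep3B (log2 change 1.41, SE 0.05, adjusted p = 1.3e-47). NDUFB11, of the complex I membrane arm, was at 73.4, 72.8 and 69.5 CPM with Con sh, against 30.3, 33.8 and 31.1 CPM with pLVX (log2 change 1.14, SE 0.06, adjusted p = 5.3e-35), but it overlaps RBM10. CYCS was at 406, 413 and 411 CPM with Con sh, against 166, 197 and 187 CPM with pLVX (log2 change 1.12, SE 0.04, adjusted p = 1.3e-47), and NDUFS6 at 62.3, 57.4 and 58.5 CPM with Con sh, against 27.4, 32.2 and 25.8 CPM with pLVX (log2 change 1.02, SE 0.06, adjusted p = 1.2e-28). UQCRH was at 201, 201 and 183 CPM with Con sh, against 109, 108 and 111 CPM with pLVX (log2 change 0.80, SE 0.04, adjusted p = 6.2e-34), and SDHB at 75.6, 82.8 and 75.6 CPM with Con sh, against 44.1, 42.7 and 40.6 CPM with pLVX (log2 change 0.84, SE 0.05, adjusted p = 2.9e-27). ATP5MK was at 80.1, 75.8 and 72.8 CPM with Con sh, against 37.2, 44.3 and 38.1 CPM with pLVX (log2 change 0.89, SE 0.06, adjusted p = 6.2e-28). All of these had separate groups, a condition of naming them. UQCRHL, a retrocopy of UQCRH, was at 8.01, 7.77 and 7.27 CPM with Con sh, against 4.25, 5.37 and 4.78 CPM with pLVX (log2 change 0.63, SE 0.15, adjusted p = 5.7e-05), and reads of such copies may be split.

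Other nuclear members were lower in the libraries labelled Hep3B. NDUFC2 was at 23.9, 23.6 and 23.4 CPM with Con sh, against 58.7, 75.4 and 69.7 CPM with pLVX (log2 change -1.57, SE 0.06, adjusted p = 9.4e-43). NDUFA10, on the matrix side of complex I, was at 57.8, 60.0 and 58.5 CPM with Con sh, against 140, 143 and 144 CPM with pLVX (log2 change -1.31, SE 0.05, adjusted p = 7.7e-49). UQCRC2, a core protein of complex III, was at 172, 172 and 161 CPM with Con sh, against 347, 340 and 334 CPM with pLVX (log2 change -1.06, SE 0.04, adjusted p = 5.2e-47). ATP5F1A, the alpha subunit of ATP synthase, was at 310, 293 and 291 CPM with Con sh, against 492, 482 and 469 CPM with pLVX (log2 change -0.73, SE 0.04, adjusted p = 3.1e-35), and SDHC at 68.7, 73.1 and 63.6 CPM with Con sh, against 99.5, 94.1 and 96.3 CPM with pLVX (log2 change -0.53, SE 0.05, adjusted p = 2.5e-18). Groups were apart for these 5, a condition of naming them, and their log2 differences were also below 0 on FPKM. Of 35 nuclear members below 0 with TMM, however, 15 lay above 0 with plain totals in edgeR, 10 of them members called lower with TMM. Of those 10, UQCR11, NDUFS8, COX7A2 and ATP5MC1 are among the members whose levels are given here. COX8A, which was not called with TMM (-0.04), also lay above 0 with plain totals (0.32).

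Several subunits are encoded by more than 1 gene, and the libraries used the widespread form. COX4I2, COX6A2, COX6B2, COX7A1, COX7B2 and COX8C, isoforms known from lung, muscle, heart or testis, averaged at most 0.384 CPM in any group and were left out by the filter on low counts, while COX4I1, COX6A1, COX6B1, COX7A2, COX7B and COX8A averaged at least 25.0 CPM. COX4I1 was at 186, 200 and 200 CPM with CD146 sh, against 228, 232 and 216 CPM with Con sh (log2 change -0.21, SE 0.04, adjusted p = 9.1e-05), and in HepG2 at 189, 189 and 192 CPM with CD146oe, against 203, 230 and 219 CPM with pLVX (log2 change -0.20, SE 0.04, adjusted p = 6.0e-05). COX7A2 was at 47.5, 46.3 and 49.9 CPM with CD146 sh, against 57.6, 53.2 and 52.8 CPM with Con sh (log2 change -0.19, SE 0.06, adjusted p = 0.00348). NDUFA4 was at 100, 101 and 109 CPM with CD146 sh, against 132, 124 and 123 CPM with Con sh (log2 change -0.29, SE 0.05, adjusted p = 1.0e-06), and in HepG2 at 83.2, 91.3 and 83.3 CPM with CD146oe, against 101, 104 and 99.8 CPM with pLVX (log2 change -0.25, SE 0.05, adjusted p = 2.5e-05). Groups were apart in these 3 genes. Its paralogue NDUFA4L2, known as a hypoxia-induced gene, was at 1.01, 1.68 and 1.32 CPM with CD146 sh, against 0.860, 1.18 and 0.488 CPM with Con sh (log2 change 0.68, SE 0.32, adjusted p = 0.0698). Its groups overlapped, and it passed without Con sh replicate 2 (adjusted p = 0.0305) or without CD146 sh replicate 1 (0.0361).

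The c-ring genes ATP5MC1, ATP5MC2 and ATP5MC3 differ in their import signals but yield the same mature protein. ATP5MC3 was at 63.0, 68.8 and 73.0 CPM with CD146 sh, against 92.8, 95.3 and 87.6 CPM with Con sh (log2 change -0.43, SE 0.05, adjusted p = 3.9e-09), and ATP5MC2 at 48.9, 55.9 and 55.8 CPM with CD146 sh, against 70.9, 69.7 and 64.3 CPM with Con sh (log2 change -0.36, SE 0.06, adjusted p = 1.0e-06). ATP5MC1 was at 62.6, 66.3 and 72.7 CPM with CD146 sh, against 75.0, 72.7 and 69.5 CPM with Con sh (log2 change -0.11, SE 0.05, adjusted p = 0.0733), with overlapping groups, and did not pass. In HepG2 the order differed: ATP5MC1 fell by 0.45, ATP5MC2 was at 34.9, 36.9 and 39.5 CPM with CD146oe, against 39.9, 44.6 and 47.5 CPM with pLVX (log2 change -0.25, SE 0.06, adjusted p = 0.00274), and ATP5MC3 was at 155, 168 and 174 CPM with CD146oe, against 177, 186 and 184 CPM with pLVX (log2 change -0.14, SE 0.04, adjusted p = 0.00633). The ATP5MC2 call was lost without pLVX replicate 3 (adjusted p = 0.0505) and the ATP5MC3 call without CD146oe replicate 1 (0.122). Between the control groups ATP5MC2 was higher in the libraries labelled Hep3B by 0.59 and ATP5MC3 lower by 1.03 on the log2 scale. COX7C was at 169, 165 and 155 CPM with Con sh, against 93.6, 110 and 103 CPM with pLVX (log2 change 0.63, SE 0.04, adjusted p = 6.7e-25). The readthrough members NDUFC2-KCTD14 and ATP5MF-PTCD1 and the retrocopy ATP5MGL averaged under 1 CPM in each group.

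The NRF1 motif was set beside the responses of the matched nuclear members. With knockdown 15 of 21 members with the motif fell and 2 rose (median -0.34), and 26 of 44 without it fell and 5 rose (median -0.20). With overexpression 10 of 21 with it and 23 of 44 without it fell, with medians of -0.17 in both. With knockdown 15 of 20 members with the ETS motif and 26 of 45 without it fell, and with overexpression 10 of 20 and 23 of 45 did. These are counts of letters in windows. NDUFS6, which fell with knockdown, and UQCR11, which rose, both carried an NRF1 match in the windows printed above.

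Factors that build the complexes or act on mitochondrial RNA were read from lists that do not overlap the members. Of 16 complex I assembly factors 10 fell and 1 rose with knockdown (median -0.25), where 28.5% of all genes tested fell and 26.8% rose. TMEM126B, of the membrane-arm assembly complex, was at 34.3, 35.7 and 36.9 CPM with CD146 sh, against 73.2, 76.0 and 70.6 CPM with Con sh (log2 change -1.04, SE 0.06, adjusted p = 2.8e-19), and NDUFAF4 at 10.9, 10.4 and 11.2 CPM with CD146 sh, against 17.6, 16.5 and 17.3 CPM with Con sh (log2 change -0.67, SE 0.09, adjusted p = 3.7e-08). Of 20 complex IV assembly factors 11 fell and 5 rose (median -0.22). Of 21 factors for mitochondrial DNA, transcription and mRNA 15 fell and 2 rose (median -0.27). TFAM, which packs the mitochondrial genome and starts its transcription, was at 94.5, 88.3 and 95.4 CPM with CD146 sh, against 140, 149 and 143 CPM with Con sh (log2 change -0.63, SE 0.05, adjusted p = 4.8e-15). TWNK, the mitochondrial DNA helicase, was at 39.6, 39.7 and 41.0 CPM with CD146 sh, against 57.4, 63.0 and 61.4 CPM with Con sh (log2 change -0.60, SE 0.06, adjusted p = 5.6e-12). GRSF1, of the mitochondrial RNA granules, was at 94.9, 92.3 and 99.9 CPM with CD146 sh, against 146, 145 and 146 CPM with Con sh (log2 change -0.61, SE 0.04, adjusted p = 7.1e-15). FASTKD5, which processes mitochondrial transcripts that no tRNA borders, was at 10.8, 12.6 and 11.3 CPM with CD146 sh, against 34.1, 36.3 and 32.8 CPM with Con sh (log2 change -1.57, SE 0.08, adjusted p = 6.0e-20). All of these had separate groups and fell while most mitochondrial mRNAs rose.

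With overexpression 2 of 16 complex I assembly factors fell and 1 rose, 2 of 20 for complex IV fell, and 3 of the 21 factors for mitochondrial DNA and RNA fell (medians -0.04, -0.05 and -0.03), against 10.3% falls and 9.55% rises over all genes. These directions did not hold with plain totals, where 0, 1 and 1 fell and 3, 1 and 2 rose. Assembly factors of complexes II, III and V had 1, 2 and 0 rises and 0, 1 and 2 falls with knockdown among 4, 6 and 4 tested, and with overexpression 0 rises and 0, 1 and 1 falls. Of 10 tested regulators of mitochondrial biogenesis, 3 rose and 5 fell with knockdown and 1 rose and 2 fell with overexpression. For comparison, 26.8% of all genes tested rose and 28.5% fell with knockdown. PPARGC1A, the coactivator best known for inducing mitochondrial genes, was at 50.5, 45.0 and 46.4 CPM with CD146 sh, against 24.2, 20.3 and 23.6 CPM with Con sh (log2 change 1.05, SE 0.07, adjusted p = 1.7e-16). PPARGC1B, its relative, was at 5.36, 4.42 and 4.33 CPM with CD146oe, against 8.59, 8.39 and 7.09 CPM with pLVX (log2 change -0.77, SE 0.14, adjusted p = 4.3e-05). Both had separate groups.

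Between the controls the same lists differed in both directions. Over all genes tested 43.0% were higher and 42.1% lower in the libraries labelled Hep3B. Of 16 complex I assembly factors 7 were higher and 7 lower there, and of 20 for complex IV 10 and 7. Of 21 factors for mitochondrial DNA and RNA 9 were higher and 10 lower, and of 10 tested biogenesis regulators 6 and 2. With plain totals these counts were 9 and 7, 13 and 6, 14 and 6, and 8 and 2. Over all 7 lists 42 factors differed at least 1.5-fold with at least 5 CPM in one group, 16 of them higher and 26 lower. The largest difference each way in each of these 4 lists follows. NUBPL, an iron-sulphur protein of complex I assembly, averaged 11.1 ± 0.918 CPM with Con sh and 56.3 ± 1.07 CPM with pLVX (SD, n = 3; log2 change -2.39, SE 0.07, adjusted p = 1.5e-53), and ACAD9, another complex I assembly factor, at 105, 105 and 108 CPM with Con sh, against 46.1, 46.1 and 43.9 CPM with pLVX (log2 change 1.19, SE 0.05, adjusted p = 3.6e-41). COA3, which stabilises newly made MT-CO1, was at 15.7, 16.7 and 15.3 CPM with Con sh, against 49.6, 54.3 and 51.0 CPM with pLVX (log2 change -1.74, SE 0.07, adjusted p = 8.6e-44), and COA7, of complex IV assembly, at 125, 126 and 127 CPM with Con sh, against 44.8, 46.0 and 46.7 CPM with pLVX (log2 change 1.42, SE 0.05, adjusted p = 6.8e-49). Groups were apart for these 4 factors. TFB1M, the mitochondrial ribosomal RNA methyltransferase, was at 10.7, 10.3 and 11.3 CPM with Con sh, against 62.6, 68.0 and 66.9 CPM with pLVX (log2 change -2.65, SE 0.07, adjusted p = 1.0e-58), and SSBP1, which coats single-stranded mitochondrial DNA, at 157, 167 and 154 CPM with Con sh, against 65.2, 70.1 and 64.6 CPM with pLVX (log2 change 1.21, SE 0.05, adjusted p = 9.8e-46). NFE2L2, the regulator of antioxidant genes, was at 90.4, 91.6 and 89.0 CPM with Con sh, against 300, 297 and 291 CPM with pLVX (log2 change -1.75, SE 0.04, adjusted p = 1.1e-64), and PPARGC1B at 54.0, 55.4 and 57.0 CPM with Con sh, against 8.59, 8.39 and 7.09 CPM with pLVX (log2 change 2.75, SE 0.08, adjusted p = 6.2e-55). Groups were apart for these 4 as well, and PPARGC1B differed most of the 42.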

How the data were processed

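Poly(A)-selected RNA was sequenced. Per the submitters' processing notes, cutadapt 1.9.1, HISAT2 2.2.1 and HTSeq 0.6.1 were used. The genome build, annotation and strand setting are not given in the sources used here. The authors deposited raw counts per Ensembl gene ID and FPKM, counts divided by exon length and plain library totals. Symbols, biotypes and positions came from GENCODE v29 (GRCh38), so overlaps between genes refer to that annotation. The members and the other gene lists were chosen with earlier results of these data known.

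Counts were fitted with edgeR 4.0.16 (R 4.3.3; filterByExpr, TMM, quasi-likelihood test, Benjamini-Hochberg adjusted p under 0.05), separately for each pair of groups and over all 12 libraries for the difference between lines. CPM were computed from the deposited counts with TMM scaling over all libraries. Alternatives were DESeq2 1.42.0, limma 3.58.1 on log2(FPKM + 0.1), RLE scaling, plain library totals (chosen after seeing the data), scaling without mitochondrial genes, no low-count filter, a fit of all libraries, replicate numbers as a block and leaving out each library. Levels in every library are given for the mitochondrial members, for up to 2 rises and 2 falls per complex and comparison with separate groups and at least 5 CPM, for the 10 smallest p of the difference and for paralogues, and for listed factors changed at least 1.5-fold with knockdown or overexpression. Between the controls, where 42 listed factors met that rule, only the largest difference each way in 4 lists is given. Biological coefficients of variation were 2.92% to 3.79%. The fits were tested on simulated data. A count of 3 corresponds to 0.152 to 0.266 CPM, which covers counting error only. Between libraries of a group chi-square per gene was 1.74 to 3.93, above the 1 that sampling alone gives.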

Additional observations from a re-analysis of the deposited data

Results flagged for a closer look

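The effect of CD146 differed between the lines for the members below. Each value is the log2 effect of higher CD146 in HepG2 (CD146oe minus pLVX) minus that in the libraries labelled Hep3B (Con sh minus CD146 sh), tested in 1 fit of all 12 libraries. Nuclear members with the smallest adjusted p were NDUFS5 (-0.80), ATP5F1B (-0.62), SDHC (-0.76), ATP5MF (-0.71), NDUFS3 (-0.79), ATP5PB (-0.55), UQCRC2 (-0.51), NDUFB2 (-0.91), UQCRH (-0.54) and ATP5MC3 (-0.57). COX8A lay on the other side of 0, at 0.59.

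Among mitochondrial members MT-CO1 (0.43), MT-ND1 (0.31), MT-CO2 (0.29), MT-ND4 (0.24) and MT-ND4L (0.19) lay above 0, and MT-ATP8 (-0.42), MT-CO3 (-0.34) and MT-ND3 (-0.30) below it. The MT-ND4L and MT-ATP8 calls were lost with DESeq2 and with limma on FPKM. The lines were perturbed by different methods and grown in different media, and these cannot be told apart from the line.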

How the results depend on the processing

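With limma on FPKM, 57 nuclear members were higher and 15 lower between the controls (36 and 30 with edgeR on counts). In the same fit 6 mitochondrial members rose with knockdown (10), 14 nuclear members fell and 1 rose with overexpression (42 and 0), 10 nuclear members fell in both lines (28), 4 mitochondrial members rose with knockdown and fell with overexpression (9), and between the controls the median of all genes was 0.36 and 1 mitochondrial and 15 nuclear members turned positive, 6 of which are members named with levels: MT-CO3 (0.01), NDUFS8 (0.11), UQCR11 (0.14), COX8A (0.32), COX7A2 (0.05) and ATP5MC1 (0.07). EdgeR with plain totals, chosen after seeing the data, gave these 6 the same values and MT-ATP6 0.00. It also gave 56 nuclear members higher and 15 lower between the controls, 24 nuclear falls and 1 rise with overexpression, and 5 nuclear rises with knockdown. Nuclear members that passed above 0 in the difference numbered 2 (1) with limma, plain totals, RLE scaling and scaling without mitochondrial genes. Without a low-count filter 6 mitochondrial members passed below 0 in the difference (3), and 5 nuclear members rose with knockdown (8). DESeq2 called 1839 genes with overexpression (3037), and the cause was not tested. Log2 ratios of summed levels were -0.81 on TMM-scaled CPM against -0.45 on FPKM for mitochondrial members between the controls, -0.16 against -0.11 for nuclear members with overexpression, and 0.10 against 0.53 for nuclear members between the controls, or 0.37 without members with an overlap, pseudogene or paralogue.

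Leaving out 1 library gave 9 to 11 mitochondrial rises and 0 to 2 falls with knockdown, and 6 to 10 nuclear rises and 49 to 56 falls. With overexpression it gave 10 to 12 mitochondrial and 28 to 43 nuclear falls, and between the controls 34 to 39 nuclear members higher and 26 to 31 lower. In the difference it gave 4 to 6 mitochondrial members that passed above 0 and 3 to 5 below, and 1 to 2 nuclear members above and 55 to 61 below. From 21 to 30 nuclear members fell in both lines.

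Same-numbered libraries deviated together weakly at most (correlations of 0.024 to 0.106 with knockdown and -0.042 to 0.003 with overexpression), so the numbers are not taken as pairs. Between Con sh and pLVX these correlations were 0.015 to 0.040, and each library there correlated best with its own number. With the replicate numbers as a block, 9543 genes were called with knockdown, 2947 with overexpression, 14712 between the controls and 6855 in the difference. Nuclear falls then numbered 53 with knockdown and 41 with overexpression. Among the members named with levels the block changed 1 call, the knockdown rise of MT-CO3 (adjusted p = 0.0329, against 0.0579 without it). The unknown strand setting limits the values of members that overlap other genes, and members under the low-count filter could not be tested.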
